A study of Danio rerio with 6 samples.

Results

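Genes that define B cells were followed in blood cells of the larval zebrafish kidney region. The set held 10 named genes: the transcription factor genes pax5, ebf1a and pou2af1, the receptor signalling chains cd79a and cd79b, the antibody heavy chain genes ighm, ighz and ighd, and the signalling genes blnk and btk. They were looked up by symbol among the 25116 rows with an Ensembl gene ID in a table of 27314 rows. By symbol 8 were found, and the other 2, ighm and pou2af1, were found by gene ID because their rows carry another symbol. The title of the series names T cell reconstitution, and B cells are not mentioned in it.

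The larvae of both groups carried Tg(coro1a:DenNTR), a transgene that expresses Dendra2, a protein turned from green to red by light, together with NTR from the promoter of the leukocyte gene coro1a. Their genotype was labelled WT. One group received DMSO and the other MTZ, which with NTR transgenes is usually metronidazole, a prodrug that nitroreductase turns into a toxin. At 3.5 dpt and 9 dpf the kidney region was photoconverted with a 405-nm laser for 30 s, about 80 larvae were pooled, and 50 red cells were sorted into each Smart-seq2 library. There were 3 libraries per group, and nothing in the labels says that they came from separate pools of larvae. The p-values therefore set the groups against the spread of these 6 libraries, and that spread may be technical.

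In vertebrates, Ebf1 and Pax5 switch on and hold the B cell programme, and Pou2af1 is a coactivator of octamer-binding factors on antibody genes. A membrane antibody pairs with Cd79a and Cd79b to form the B cell receptor, whose signal passes through the Src-family kinase Lyn, the kinase Syk, the adaptor Blnk and the kinase Btk. Fish use heavy chains of the mu, delta and zeta classes, the last of which is a teleost class. The kidney marrow is the main site of B cell formation in adult zebrafish, and in larvae B cells with surface IgM are known to appear later than thymic T cells. Myeloid cells also use Btk, Syk and Lyn, so these genes do not mark B cells by themselves.

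Library totals lay between 14058382 and 20674280 counts, and each library had between 9831 and 11497 genes with at least 3 counts. Levels are given in CPM, the count of a gene scaled to the TMM-adjusted total of the genes tested in its library. A count of 3, taken as the least that counts as detected, was worth between 0.149 and 0.233 CPM in a library. Such a floor covers counting error only, because the reads carry no molecular identifiers. CPM is not divided by gene length, so levels are compared between libraries and not between genes.

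The core B cell genes were at 0 in every library of both groups. The row of pax5 (ENSDARG00000037383), the factor that commits cells to the B lineage, had 0 counts in all 6 libraries. The rows of cd79a (ENSDARG00000037473) and cd79b (ENSDARG00000104691), the chains that carry the receptor's signal into the cell, also had 0 counts in all 6. So had ighz (ENSDARG00000096280), the zeta heavy chain gene. The pou2af1 row (ENSDARG00000104312), deposited under the clone name CT573342.2 and matched through the NCBI gene number in its description, was likewise at 0. Over the 6 libraries together, 101582636 counts in all, 0 counts allow a level of up to 0.0300 CPM. These 5 genes were thus not detectable at this depth in these pools. The bound is one of counting in the sorted pools of 50 cells and not one for the kidney region they came from. In a bulk pool, fewer cells of a type and less RNA per cell cannot be told apart.

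Rows at 0 were common in the table. Of the rows with an Ensembl ID, 9400 (37.4%) had no count in any library, 57.4% had at least 3 counts in at least 1 library, and 5256 (20.9%) had at least 3 counts in every library. Of the 10 B cell genes, 5 were at 0 everywhere, 5 had at least 3 counts in some library, and 1, btk, had at least 3 counts in every library. By library, the number with at least 3 counts was 2, 3 and 2 in DMSO 1, 2 and 3 and 5, 2 and 3 in MTZ 1, 2 and 3. Counted by group, 3 of the 10 were detected in DMSO and 5 in MTZ, and without MTZ 1 the MTZ number was 3.

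**Figure D1:**
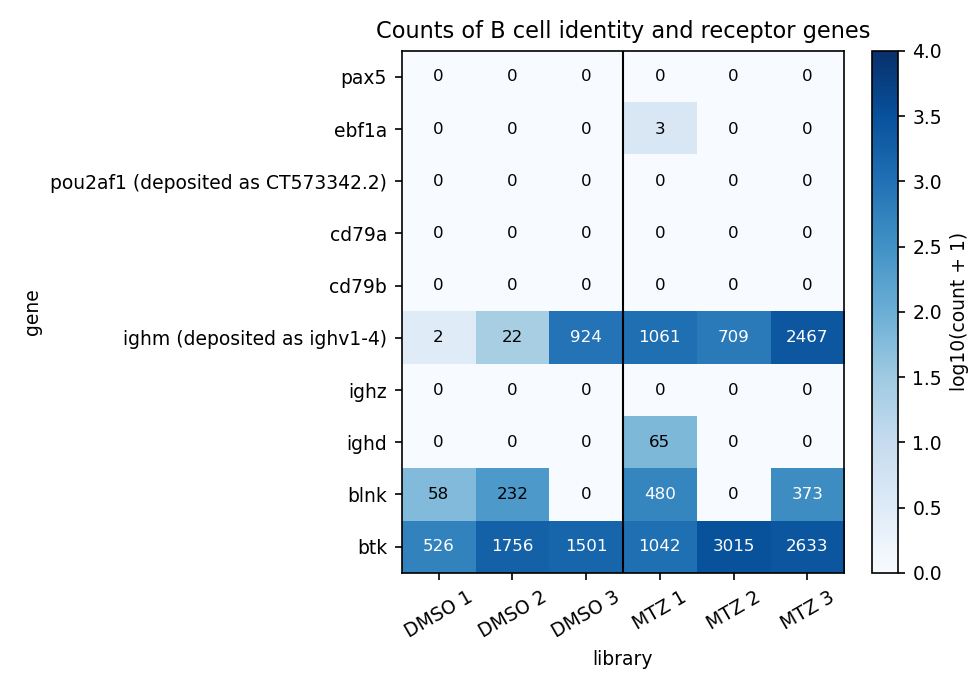
Counts of the 10 B cell genes (rows) in the 3 DMSO and 3 MTZ libraries (columns), each printed with its estimated count rounded to a whole number and shaded by log10(count + 1). The rows of pax5, pou2af1, cd79a, cd79b and ighz are 0 throughout, and ebf1a and ighd have counts in MTZ 1 alone. The ighm row and btk have counts in every library.

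Among the transcription factors, ebf1a (ENSDARG00000099849), which acts upstream of pax5, was the only one with any count. It had 3 counts in MTZ 1, or 0.162 CPM, and 0 in the other 5 libraries. That level is the detection floor itself. Its paralog ebf1b had 1 count in DMSO 1 and none elsewhere.

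The delta heavy chain gene ighd (ENSDARG00000096248) was seen in MTZ 1 alone. It had 65 counts there, 3.51 CPM, and 0 counts in each of the other 5 libraries. Too few libraries held it for the filter on low counts. An exact permutation test of log2(CPM + 1) gave p = 1 (two-sided). With counts in 1 library alone every split gives a difference of the same size, so this p was fixed in advance and decides nothing. For other genes, 3 libraries against 3 cannot give less than 0.1.

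The row matched to ighm carries conflicting names. Its ID, ENSDARG00000096355, is paired with ighm, the mu heavy chain gene, in the gene-name table used here. The deposited table calls the same row ighv1-4 and describes it as a heavy chain variable segment. A second row deposited as ighv1-4 (ENSDARG00000096301) was at 0 in all libraries. Its values are therefore those of an antibody heavy chain row whose segment is uncertain.

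This ighm row had 2, 22 and 924 counts in DMSO 1, 2 and 3 and 1061, 709 and 2467 counts in MTZ 1, 2 and 3. These were 0.156, 1.29 and 60.8 CPM in DMSO and 57.3, 43.9 and 122 CPM in MTZ. It was high in all 3 MTZ libraries and in DMSO 3, and low in DMSO 1 and 2, so the groups overlapped. The means were 20.7 ± 34.7 CPM (SD, n = 3) in DMSO and 74.5 ± 42.1 CPM (SD, n = 3) in MTZ. Its log2 fold change, MTZ against DMSO, was 1.85 ± 1.72 (SE) and did not pass (edgeR adjusted p = 0.9997, exact permutation p = 0.3, two-sided). Without DMSO 3 the log2 fold change was 6.67.

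The other antibody rows with an Ensembl ID were almost empty. Apart from the set's own members, 58 rows with an Ensembl ID carry a symbol of an immunoglobulin heavy or light chain segment. Of these, 57 were at 0 in all libraries, and ighv8-4 (ENSDARG00000109214) had 1 count, in DMSO 3. Every light chain row among them was at 0.

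Downstream of the receptor, both signalling genes of the set were present in DMSO and MTZ libraries. The adaptor gene blnk (ENSDARG00000042722), which links Syk to Btk, had 4.51, 13.6 and 0 CPM in DMSO and 25.9, 0 and 18.5 CPM in MTZ. It was at 0 in 1 library of each group, and the groups overlapped. Its means were 6.02 ± 6.91 CPM (SD, n = 3) in DMSO and 14.8 ± 13.3 CPM (SD, n = 3) in MTZ, a log2 fold change of 1.296 ± 2.81 (SE) that did not pass (edgeR adjusted p = 0.9997, exact permutation p = 0.6, two-sided). Leaving out 1 library moved it to between 0.63, without MTZ 1, and 2.72, without DMSO 2.

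The kinase gene btk (ENSDARG00000004433) was the one member with at least 3 counts in every library. It had 40.9, 103 and 98.7 CPM in DMSO and 56.2, 187 and 131 CPM in MTZ. In each group the library numbered 1 was the lowest, and the groups overlapped. The means were 80.8 ± 34.6 CPM (SD, n = 3) in DMSO and 124.5 ± 65.4 CPM (SD, n = 3) in MTZ, with a log2 fold change of 0.62 ± 0.60 (SE; edgeR adjusted p = 0.9997, exact permutation p = 0.4, two-sided). Without MTZ 2 the log2 fold change was 0.22 and without MTZ 1 it was 0.98.

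**Figure D2:**
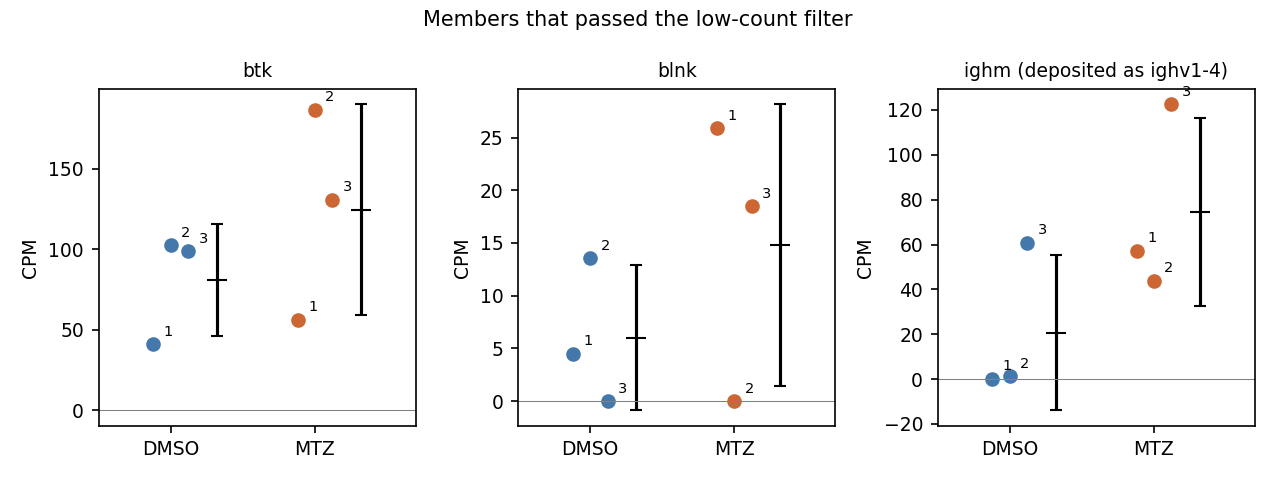
CPM of the ighm row, blnk and btk in each library (points, numbered by replicate) for DMSO and MTZ, with the group mean and SD as a black bar beside them. The groups overlap for all 3 genes: the ighm row runs from 0.156 to 60.8 CPM in DMSO and from 43.9 to 122 CPM in MTZ.

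None of the 3 tested members passed the edgeR test, and neither did any of the 10283 genes tested (0% called), while 327 (3.18%) had an unadjusted p under 0.05. DESeq2, fitted on the 17911 rows with a count, gave a p for 14361 genes and called 386 of these (2.69%). Restricted to the genes edgeR tested, an alternative chosen after seeing the data, it called 130 of the 9778 with a p (1.33%). EdgeR without its filter called 52 of 17911 (0.29%). None of these called a member. The groups did not overlap for 1106 of the tested genes (10.8%) and for 0 of the 3 tested members. The common biological coefficient of variation between libraries was 1.42. At so wide a spread, not passing with edgeR does not show that a gene was unchanged.

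The other genes of the receptor's signalling chain were mostly present. Of 27 names, 24 rows were matched, 23 had at least 3 counts in some library, and 12 had them in every library. Of the 20 tested, 14 had a positive and 6 a negative log2 fold change, with a median of 0.26. Over all genes tested, 50.9% were positive and the median was 0.02. No gene of this list passed edgeR's test, and DESeq2 called 1, lyn.

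The kinase gene lyn (ENSDARG00000067916) had 2.33, 3.74 and 2.63 CPM in DMSO and 28.0, 21.3 and 35.5 CPM in MTZ. All MTZ libraries were above all DMSO libraries. Of all tested genes, 10.8% had groups that did not overlap, counting both directions. The means were 2.90 ± 0.743 CPM and 28.2 ± 7.09 CPM (SD, n = 3 each), with a log2 fold change of 3.28 ± 1.71 (SE). The difference did not pass with edgeR (adjusted p = 0.9997). DESeq2 gave an adjusted p of 5.84e-05 when fitted on every row with a count and 0.0782 when fitted on the genes edgeR tested. Between these fits its unadjusted p also moved, from 3.58e-07 to 0.00111. With any library left out the log2 fold change stayed between 3.09 and 3.51.

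The remaining named genes of the chain did not pass. The kinase gene syk (ENSDARG00000008186), which binds the phosphorylated receptor chains, had 417, 324 and 143 CPM in DMSO and 393, 633 and 298 CPM in MTZ (log2 fold change 0.58 ± 0.44). The phosphatase gene ptprc (ENSDARG00000071437, CD45), a leukocyte surface protein that releases Src-family kinases from inhibition, had 87.7, 118 and 15.7 CPM in DMSO and 175, 243 and 104 CPM in MTZ (1.24 ± 0.71). The groups overlapped for both. The gene of the paracaspase malt1 (ENSDARG00000077768), which carries the signal to NF-kappaB, had 0, 0.0585 and 2.43 CPM in DMSO and 28.8, 64.0 and 0.0993 CPM in MTZ. It was high in 2 of the 3 MTZ libraries, and its log2 fold change of 5.21 ± 2.94 became 9.66 without DMSO 3 and 4.11 without MTZ 2. The coreceptor gene cd22, an inhibitor of receptor signalling, had 55.0, 0 and 0 CPM in DMSO and 2.48, 0.0619 and 28.7 CPM in MTZ, so most of its counts lay in a single library of each group.

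Transcription factors with roles in the B lineage and in other blood cells were also mostly present. The list matched 30 of 33 names in 31 rows, of which 25 had at least 3 counts in some library and 15 in every library. Of 21 tested, 16 had a positive and 5 a negative log2 fold change (median 0.66, beside 0.02 for all genes). None passed with edgeR, 1 had an unadjusted p under 0.05, and DESeq2 called 1. Both of these were irf4a. The macrophage marker list also holds spi1b and irf8 of this list.

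The factor gene irf4a (ENSDARG00000006560), whose mammalian counterpart acts in plasma cells, activated lymphocytes and some myeloid cells, had 0 counts in every DMSO library and 946 in the MTZ libraries together. Its MTZ levels were 22.0, 8.35 and 20.01 CPM, a mean of 16.8 ± 7.38 (SD, n = 3). Against a floor of 3 counts over the DMSO group, its pooled MTZ counts were at least 259.8-fold higher. That figure covers counting error only and not the spread between libraries, so it is no lower bound for the groups. The edgeR log2 fold change was 11.13 ± 3.19 (SE), a fitted value that depends on the prior count. The gene did not pass with edgeR (adjusted p = 0.9997; exact permutation p = 0.1, the smallest this design allows). With 0 counts in DMSO, irf4a could pass the low-count filter only through counts in every MTZ library. Its separation of the groups and its permutation p were thus fixed by that filter and decide nothing. DESeq2 gave an adjusted p of 1.58e-05 when fitted on every row with a count and 0.00196 when fitted on the genes edgeR tested.

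Among the other factors named by the rule, sox4a (ENSDARG00000004588), a factor of progenitors and immature lymphocytes, had 90.04, 23.9 and 114 CPM in DMSO and 134, 267 and 112 CPM in MTZ. Its log2 fold change was 1.17 ± 0.64. The lymphoid factor gene ikzf1 had 188, 118 and 192 CPM in DMSO and 213, 305 and 181 CPM in MTZ (0.49 ± 0.36). The gene spi1b encodes PU.1, which acts in myeloid cells and in early B cells. It had 264, 99.2 and 72.6 CPM in DMSO and 640, 29.8 and 357 CPM in MTZ (1.24 ± 0.92). Its log2 fold change was 0.43 without MTZ 1 and 2.01 without DMSO 1. The groups overlapped for all 3 factors. Within each group spi1b was lowest in DMSO 3 and MTZ 2, the libraries in which blnk was at 0. Its paralog spi1a was lowest in DMSO 1 and MTZ 2. The macrophage list gene csf1rb was highest in DMSO 3 (188 CPM) among DMSO libraries and lowest in MTZ 2 (146 CPM) among MTZ libraries. Any link of blnk to myeloid cells was not tested.

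Genes of B cell survival and of plasma cells were detected in part. Of 26 names, 16 rows were matched, 12 had at least 3 counts in some library, and 3 had them in every library. Of 6 tested, 4 had a positive and 2 a negative log2 fold change, with a median of 0.29, and neither edgeR nor DESeq2 called one. The receptor genes flt3, of early progenitors, and cd27, of lymphocytes, were at 0 in all libraries. The plasma cell factor gene prdm1a was seen at 21.3 CPM in MTZ 3 and at 1 count in MTZ 2. The receptor gene cxcr5, which guides B cells into follicles in mammals, was seen at 8.35 CPM in MTZ 2. Other untested rows of this list had most or all of their counts in 1 DMSO library. These were mef2ca (37.2 CPM in DMSO 2), pigr (15.6 CPM in DMSO 1) and tnfsf13b (0.855 CPM in DMSO 3). The prdm1b row had 3 counts, in MTZ 1.

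The survival gene bcl2a (ENSDARG00000094704), an inhibitor of apoptosis, had 0, 1.40 and 0 CPM in DMSO and 49.4, 40.7 and 5.71 CPM in MTZ. All MTZ libraries were above all DMSO libraries. Its log2 fold change was 6.06 ± 2.79 and did not pass (adjusted p = 0.9997 with edgeR and 0.0745 with DESeq2), and without DMSO 2 it was 12.05. The secretory factor gene xbp1, needed by plasma cells and other secretory cells, had 954, 982 and 751 CPM in DMSO and 1170, 469 and 1503 CPM in MTZ (0.23 ± 0.39). The interleukin 7 receptor gene il7r, used by lymphoid progenitors and T cells, had 572, 272 and 153 CPM in DMSO and 91.4, 457 and 348 CPM in MTZ (-0.15 ± 0.64). The gene of the costimulatory receptor cd40 had 1.71, 1.46 and 0.526 CPM in DMSO and 10.2, 0 and 1.44 CPM in MTZ (1.65 ± 2.30). Leaving out 1 library turned the sign for cd40 (-0.76 without MTZ 1), for il7r (0.50 without DMSO 1) and for xbp1 (-0.12 without MTZ 3).

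**Figure D3:**
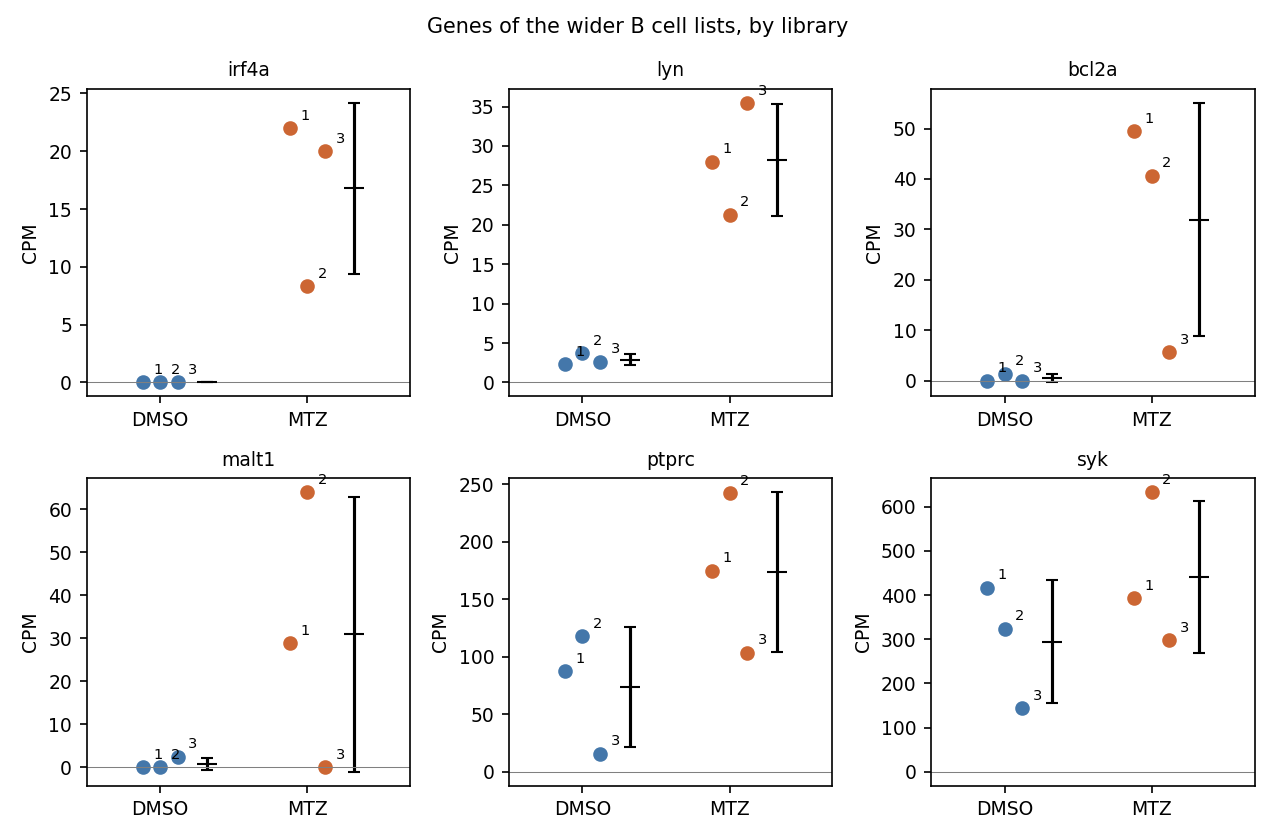
CPM of irf4a, lyn, bcl2a, malt1, ptprc and syk in each library (points, numbered by replicate) for DMSO and MTZ, with the group mean and SD as a black bar beside them. For irf4a, lyn and bcl2a all 3 MTZ points lie above all 3 DMSO points, and for malt1, ptprc and syk the groups overlap. For irf4a, which had 0 counts in DMSO, the low-count filter fixed this separation in advance.

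Over the 3 lists, 71 rows were matched, of which 10 were at 0 everywhere, 30 had at least 3 counts in every library and 9 had them in a single library. Of the 47 tested rows, 34 had a positive and 13 a negative log2 fold change, beside 50.9% positive among all tested genes. The groups did not overlap for 3 of them (6.38%), beside 10.8% of all tested genes. The genes share the same 6 libraries and are not independent of each other.

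**Figure D4:**
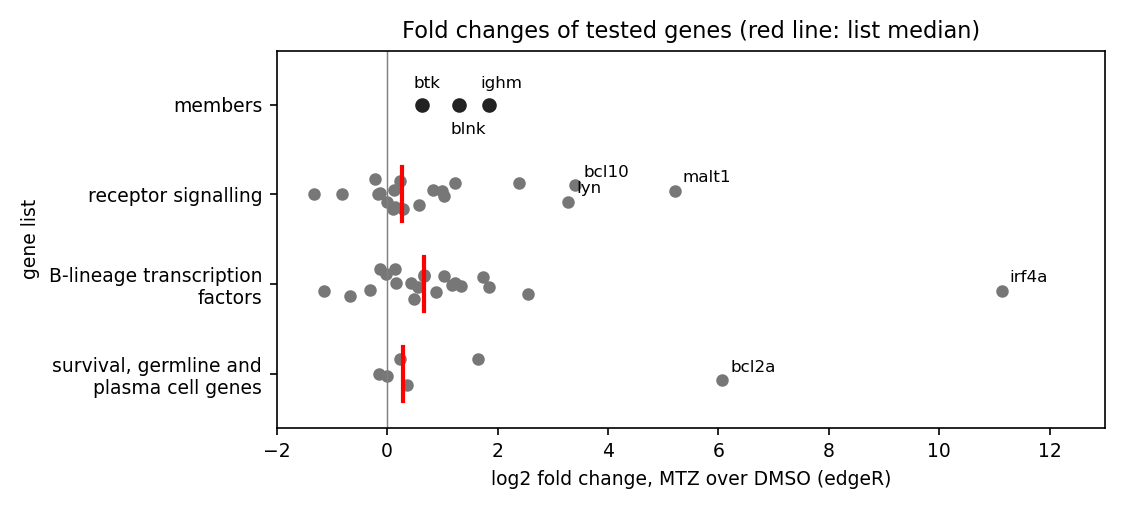
EdgeR log2 fold changes, MTZ over DMSO, of the 3 tested B cell genes (top row, black) and of every tested gene of the 3 lists (grey points), with the list median as a red line. Medians are 0.26 for receptor signalling, 0.66 for transcription factors and 0.29 for survival and plasma cell genes, and irf4a stands at 11.13, a fitted value that depends on the prior count because its DMSO counts are 0.

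Markers of other cell types were summed for each library. The T cell list (14 of 16 rows detected) ran from 2234 to 2803 CPM in DMSO and from 999.7 to 3561 CPM in MTZ, with cd4-1 and cd8a at 0 in all libraries. Its largest part was ccr9a, a homing receptor gene, at 1327 to 2029 CPM in DMSO and 780.5 to 2842 CPM in MTZ. Of the 12 tested T cell genes, 2 had a positive and 10 a negative log2 fold change (median -0.85, beside 0.02 for all genes). Neither edgeR nor DESeq2 called any of them. The macrophage list (16 of 17) ran from 2005 to 3340 and from 1666 to 3562 CPM. In MTZ 2, its lowest library, irf8 made up 1255 CPM of the sum. The macrophage genes mpeg1.1 and mfap4 stood at 0.433 and 1.55 CPM there, and csf1rb at 146 CPM. The neutrophil list (10 of 12, cxcr1 and cxcr2 at 0) ran from 1202 to 5767 and from 1084 to 16061 CPM. In MTZ 2, where it was lowest, srgn made up 1038 CPM of the sum and the neutrophil gene lyz 6.68 CPM. The muscle list (17 of 20) stood at 10059 CPM in DMSO 1 and at or under 74.4 CPM elsewhere, and the exocrine pancreas list (10 of 14) at 798 CPM in MTZ 3 and at or under 32.4 CPM elsewhere. The transgene's promoter gene coro1a had 2180 ± 585 CPM in DMSO and 1637 ± 363 CPM in MTZ (SD, n = 3 each).

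For 2 marker lists the sums of the groups did not overlap. The thrombocyte list (10 of 10 rows detected) summed to 76.8, 255 and 256 CPM in DMSO and 461, 391 and 426 CPM in MTZ. Of its 8 tested genes, 5 had a positive and 3 a negative log2 fold change, and DESeq2 called 3 (adjusted p = 4.34e-05 for itga2b, 0.00786 for f13a1b and 0.00452 for nfe2), all higher in MTZ, while edgeR called none (adjusted p = 0.9997 for each). The integrin gene itga2b, a thrombocyte surface marker, had 1.87, 0.0585 and 0.132 CPM in DMSO and 72.2, 69.2 and 48.0 CPM in MTZ. The 3 genes with a negative log2 fold change were gp9, fn1b and gfi1b. Of these, gp9 was lower in every MTZ library, with 17.3, 19.4 and 24.7 CPM in DMSO and 0, 5.94 and 5.61 CPM in MTZ. Its log2 fold change was -2.41 ± 2.31 (SE), and neither edgeR nor DESeq2 called it. The erythroid list (8 of 15 rows detected) summed to 70.1, 80.6 and 73.5 CPM in DMSO and 14.5, 13.2 and 50.8 CPM in MTZ. Different genes made up the DMSO sums. In DMSO 1, 2 and 3, slc4a1a stood at 34.0, 0 and 0 CPM and gata1a at 0, 36.6 and 38.1 CPM. In MTZ 3 gata1a had 42.2 CPM. Most globin rows of the list were at 0. DESeq2 called 1 gene, the transferrin receptor gene tfr1a, which had 0 counts in every MTZ library (adjusted p = 0.000546). With 0 counts in MTZ, tfr1a could pass the low-count filter only through every DMSO library, so its separation was fixed in advance. The thrombocyte sum, lyn and bcl2a were higher in every MTZ library than in any DMSO library. Both genes were named for a small p in their lists. Of all tested genes, 10.8% had groups that did not overlap, counting both directions. The same order for irf4a was fixed by the low-count filter. The part of these cell types in the levels of btk, blnk, lyn, irf4a, bcl2a and spi1b was not tested.

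The genes whose level over the 6 libraries was most like that of a tested member were found among 8407 tested genes, by Pearson correlation of log2(CPM + 1). The ighm row was closest to fnbp4 (r = 0.990), cbx2 (0.988) and becn1 (0.987), and 85 genes had r over 0.9. For blnk they were mapre1a (0.991), znf236 (0.989) and commd4 (0.988), with 98 genes over 0.9. For btk they were haus6 (0.985), spoplb (0.982) and adsl (0.972), with 54 over 0.9. With 6 libraries such values are a description of these libraries alone, which also share their depth and the pools' make-up.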

How the data were processed

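Smart-seq2 libraries of 50 sorted cells, 3 from DMSO-treated and 3 from MTZ-treated larvae, were analysed from 1 deposited table. The authors deposited estimated counts without scaling. The unit was read from the values, since 8.31% to 9.90% of a library's nonzero values had decimals, and they were rounded to whole numbers. HISAT2 and the GRCz11 build were used, per the submitters' processing notes. Not given in the sources used here are tool versions, the counter, the annotation release and strand use. Genes with near-identical copies, above all antibody segments, are uncertain, since the counting could split their reads. No coordinates or sequences are printed, because no GRCz11 genome or sequence table was used here.

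The groups were compared with edgeR 4.0.16 on R 4.3.3 (quasi-likelihood test, two-sided, TMM, default filter with a minimum count of 10, group only), adjusted by Benjamini-Hochberg over 10283 genes at 0.05. The SE of a log2 fold change was its size over the root of the F statistic. Exact permutation of log2(CPM + 1) over 20 splits was also run, both for genes that missed the filter and for genes that passed it. DESeq2 1.42.0, limma 3.58.1 (voom), other scalings and filters, the replicate number as a block and leaving out each library were alternatives. The fit, tested on simulated data, called the changed genes at a small spread between libraries and none of them at a wide one. The real libraries, with a common biological coefficient of variation of 1.42, spread more widely than that wide setting. Not passing with edgeR therefore cannot show that a gene was unchanged. Named list genes were the 4 of smallest p in each list and those tested and at 0 in 1 group, and other list genes were chosen with their values in view. The members and lists were chosen with earlier results of these data known.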

Additional observations from a re-analysis of the deposited data

Results flagged for a closer look

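Counts also appeared in rows described as antibody chains, which the comparison of the 10 genes did not use. These are loci of the authors' transcript assembly, named in the deposited descriptions after proteins of zebrafish or other fish, and they were chosen after their values were seen. A locus described as an immunoglobulin kappa light chain (MSTRG.18053) had 2010 counts in MTZ 3, or 99.8 CPM, 3 in MTZ 2, 1 in DMSO 2 and 0 in the other libraries. A locus described as an immunoglobulin alpha-2 heavy chain-like protein (MSTRG.18054) had 868 counts in MTZ 3, or 43.1 CPM, 1 in DMSO 2 and 0 elsewhere. A locus described as a partial immunoglobulin light chain (MSTRG.33177) had 19 counts in MTZ 2, or 1.18 CPM. Together the 3 loci stood at 143 CPM in MTZ 3, the library with the highest level of the ighm row, 122 CPM. In the other libraries where that row was high, the loci were empty or nearly so. They summed to 0 CPM in DMSO 3, 0 in MTZ 1 and 1.36 in MTZ 2, where the ighm row had 60.8, 57.3 and 43.9 CPM. None passed a test between groups: exact permutation of log2(CPM + 1) gave p = 0.4, 1 and 1 (two-sided), and edgeR without its filter gave adjusted p = 0.401, 0.586 and 0.586. All 3 loci had their counts wholly or almost wholly in 1 library. The permutation values of MSTRG.18053 and MSTRG.18054 turned on where the few other counts fell, and that of MSTRG.33177 was fixed in advance. The 3 permutation values therefore decide nothing.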

How the results depend on the processing

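The count of called genes was 0 with edgeR under each scaling tried, with limma voom (565 at an unadjusted p under 0.05), with the filter of 10 CPM in 3 libraries and with any library left out. DESeq2 called 386 genes, 130 when restricted to the genes edgeR tested (chosen after seeing the data), and edgeR without its filter called 52. Over the 15 named or member genes tested, 213 of 221 alternative values kept their direction and their side of the threshold. Under the alternatives that called no gene at all, the side of the threshold could not change, so only the direction was open there. Calls gained were lyn and irf4a with DESeq2 and irf4a with DESeq2 on edgeR's genes. Reversed values were cd40 with voom (-0.54) and with a library left out (-0.76 to 2.24), xbp1 (-0.12 to 0.59) and il7r (-0.58 to 0.50); the cause was not tested. With voom the ighm row's log2 fold change was 4.78. Members detected in MTZ were 3 when 2 libraries had to hold at least 3 counts, and 3 to 5 with a library left out.

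With the replicate block the count of called genes was 0, and log2 fold changes were 4.88 for the ighm row, 2.47 for blnk and 0.58 for btk. Deviations of same-numbered libraries correlated at -0.015, 0.0071 and -0.047, which shows no pairing. With so wide a spread between libraries these values cannot exclude one, and nothing in the labels says what the numbers mark. Depth and the 50 cells of each library both limit what is known of the 5 genes at 0. By depth alone, 0 counts in a library allow a level of up to 0.149 to 0.233 CPM there. That level is one of the sorted pool, and cells that were not sorted are not covered by it.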

Other observations

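Assembled loci with names of B cell proteins were examined after their values were seen, as a description. A locus described as a B-cell scaffold protein (MSTRG.26916), a name that in mammals belongs to an adaptor of receptor signalling, had 26.5, 81.6 and 53.0 CPM in DMSO and 0, 0 and 0.894 CPM in MTZ. All DMSO libraries were above all MTZ libraries. Its log2 fold change was -7.45 ± 2.43 and did not pass with edgeR (adjusted p = 0.9997). DESeq2 gave an adjusted p of 0.00149 when fitted on every row with a count and 0.00272 when fitted on the genes edgeR tested. A further locus with this kind of name (MSTRG.40509) had 499 counts in MTZ 2, or 30.9 CPM, and 0 in the other libraries.

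The 8 loci described as CD22-like proteins summed to 51.3, 8.71 and 1.32 CPM in DMSO and 6.48, 6.87 and 35.4 CPM in MTZ. The 7 loci described as immunoglobulin iota chains, a name also used for surrogate light chain proteins, summed to 20.8, 11.2 and 58.9 CPM in DMSO and 12.5, 0.866 and 4.92 CPM in MTZ. The groups overlapped for both.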
